A study of Mus musculus with 6 samples.

Results

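The genes described here encode the matrix metalloproteinases (Mmp), the ADAMTS proteases (Adamts) and the tissue inhibitors of metalloproteinases (Timp) of the mouse. They were taken as all protein-coding genes of the deposited count tables whose symbol is Mmp with a number and an optional a or b, Adamts with a number, or Timp with a number from 1 to 4. The rule found 45 of 38561 gene IDs, with 22 Mmp, 19 Adamts and 4 Timp genes. Gene type and position came from the GENCODE M21 annotation of GRCm38. Mmp1a, which that annotation types as a polymorphic pseudogene, fell outside the rule.

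Mmp enzymes are zinc proteases that are made as inactive precursors and, once cut, degrade collagens, gelatin, proteoglycans and other matrix proteins outside the cell. Adamts enzymes carry thrombospondin repeats and cut aggrecan and versican, trim procollagens or act on microfibrils, while Timp proteins bind the active site of Mmp enzymes and block it. In bone these proteases serve growth plate invasion, osteoclast action and osteoblast matrix turnover, and in sarcomas they are known for matrix breakdown at the invading edge.

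The series holds 6 RNA sequencing libraries, 2 for each of 3 groups, and all the mice had the genotype NG2-Cre;p53flox/flox on a mixed background. Cre is driven by the promoter of NG2 (gene Cspg4), a proteoglycan of pericytes, and deletes the floxed p53 gene (Trp53) in cells in which that promoter has been active, so the normal group carried the same alleles as the tumours. The first group was normal cells sorted from skeletal muscle with an NG2 antibody, called NG2 cells or the sorted cells below. The second was primary osteosarcomas, a tumour of the right tibia (replicate 1) and one of the lumbar spine (replicate 2; "Lumber spine" in the label), and the third was primary soft tissue sarcomas of subcutaneous tissue. No agent was given, and neither ages nor separate animals are named in the labels, so p-values measure only how far these libraries spread, which may be technical.

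Reads counted on genes ranged from 27693585 to 58126832 per library. Lane 4 of the flow cell held both NG2 cell libraries, lane 5 both osteosarcomas and lane 6 both soft tissue sarcomas, so lane and group cannot be told apart. Trp53 had normalised read counts (CPM, on library sizes scaled by TMM) of 101 and 82.3 in NG2 cells and of 24.3 to 32.6 in the tumours; these counts cover the whole gene, not the floxed part alone. Cspg4, the gene of the sorted antigen, had 38.6 and 30.6 CPM in NG2 cells and 37.7 to 188 CPM in the tumours. The NG2 cell libraries held 10 mural cell markers at summed levels of 1129 and 1795 CPM. In the tumours these markers summed to 608 to 1760 CPM, which overlaps the sorted cells. The NG2 cell libraries also held 10 lymphocyte markers at 5852 and 2937 CPM and 10 endothelial markers at 1511 and 2611 CPM. The tumours had 56.5 to 158 CPM and 169 to 555 CPM of these, in that order. The 10 osteoblast markers summed to 35790 and 38778 CPM in the osteosarcomas and to 97.4 and 105 CPM in the sorted cells. In the soft tissue sarcomas they summed to 2442 and 1844 CPM, of which Col1a1 alone had 2389 and 1779 CPM, and Sp7 was at 0. There edgeR called 1 of the 10 higher than in NG2 cells, Col1a1, and 1 lower, Alpl. That is 10% each, against 9.89% and 9.4% of all genes tested. In bulk RNA fewer cells of a type and less RNA per cell cannot be told apart, and the part of these other cell types in the differences below was not tested, except where a value is given.

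Mmp13, Mmp3 and Mmp10 lie in a cluster of Mmp genes on chromosome 9 and were high in different tumour types, so their promoters are shown first. The sequences are RefSeq promoters of GRCm38.p6, plus strand, 5′ to 3′, from 250 bases before to 50 bases after the gene start, at chr9:7272264-7272563 (Mmp13), chr9:7445572-7445871 (Mmp3) and chr9:7502092-7502391 (Mmp10). Capitals mark AP-1 letters (TGANTCA, which reads alike on both strands) and RUNX letters (TGTGGT, or ACCACA on the other strand).
Mmp13: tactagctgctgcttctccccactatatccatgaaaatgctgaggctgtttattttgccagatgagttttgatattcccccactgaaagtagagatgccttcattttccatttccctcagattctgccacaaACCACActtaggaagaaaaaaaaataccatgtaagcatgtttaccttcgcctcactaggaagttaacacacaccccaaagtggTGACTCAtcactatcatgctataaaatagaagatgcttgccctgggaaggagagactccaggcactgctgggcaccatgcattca
Mmp3: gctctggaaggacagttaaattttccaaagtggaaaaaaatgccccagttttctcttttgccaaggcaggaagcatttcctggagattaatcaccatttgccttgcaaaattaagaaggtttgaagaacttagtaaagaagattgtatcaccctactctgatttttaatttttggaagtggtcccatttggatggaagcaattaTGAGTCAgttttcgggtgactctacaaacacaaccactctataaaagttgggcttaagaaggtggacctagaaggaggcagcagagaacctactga
Mmp10: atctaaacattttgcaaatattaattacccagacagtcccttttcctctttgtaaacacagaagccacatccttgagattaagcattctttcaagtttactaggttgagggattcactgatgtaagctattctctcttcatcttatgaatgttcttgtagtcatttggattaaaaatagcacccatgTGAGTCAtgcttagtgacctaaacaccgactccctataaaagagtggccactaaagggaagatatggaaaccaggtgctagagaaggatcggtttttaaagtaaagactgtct
Positions are counted from RefSeq's gene start, which for Mmp10 lies upstream of the GENCODE start given further down. The AP-1 letters began at position -35 in Mmp13, at -46 in Mmp3 and at -63 in Mmp10, and the RUNX letters began at -118 in Mmp13. The 2 motifs did not overlap in these windows. RefSeq promoters matched 31 of the 45 genes and gave 34 promoters. Of these 34, 7 (20.6%) held the AP-1 letters, against 2565 (7.81%) of all 32851 promoters of the same length. All 7 belong to Mmp genes of the chromosome 9 cluster (Mmp3, Mmp7, Mmp10, Mmp12, Mmp13, Mmp1b and Mmp20), where 9 genes were matched. The RUNX letters stood in 6 of the 34 (17.6%) and in 5506 (16.8%) of all promoters. A match of letters is a description and does not show that a factor binds.

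Against NG2 cells, more of these genes were higher than lower in both tumour types. In osteosarcoma the collagenase gene Mmp13, the gelatinase genes Mmp2 and Mmp9, the membrane-type genes Mmp14 and Mmp16, the procollagen trimming genes Adamts2 and Adamts14 and the inhibitor genes Timp1 and Timp2 were among those that rose. Timp3, Timp4 and Adamts6 fell. In soft tissue sarcoma Mmp2, Mmp14, Adamts7, Adamts14, Timp1 and Timp2 were among those that rose, and Timp3 and Timp4 fell.

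The filter on low counts passed 40 of the 45 genes; Mmp7, Mmp20, Mmp24, Adamts13 and Adamts19 did not pass it. In osteosarcoma against NG2 cells edgeR's quasi-likelihood test called 21 of the 40 (52.5%) at an adjusted p under 0.05, against 21.5% of all 19024 genes tested. Of the 40, 18 were higher (45%, background 10.5%) and 3 lower (7.5%, background 11%), and the median log2 fold change was 2.63 against 0.04 over all genes tested. In soft tissue sarcoma against NG2 cells 14 of the 40 were called (35%, background 19.3%). Here 12 were higher (30%, background 9.89%) and 2 lower (5%, background 9.4%), with a median of 1.95 against 0 over all genes. These counts and medians describe the genes that passed the filter, some of which passed it only through the group where they were high. Both comparisons share the NG2 cell libraries. Between the tumour types 0 of the 40 were called by edgeR, against 0.142% of all genes (0.0841% higher and 0.0578% lower in soft tissue sarcoma). At an unadjusted p under 0.05 there were 10, and the share of all genes at that threshold was not counted. DESeq2 called 7 of 41 (17.1%), against 10.6% of all genes it tested.

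Those counts rest on few libraries. In osteosarcoma fewer of these genes, and fewer of all genes tested, were called when any 1 library was left out. The median log2 fold change of these genes was then 1.52 to 2.93. In soft tissue sarcoma fewer were called with either NG2 cell library left out, again also of all genes. With either soft tissue sarcoma library left out no call of any gene remained. The median in soft tissue sarcoma was 1.12 to 2.28 over the fits that left out 1 library.

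**Figure D1:**
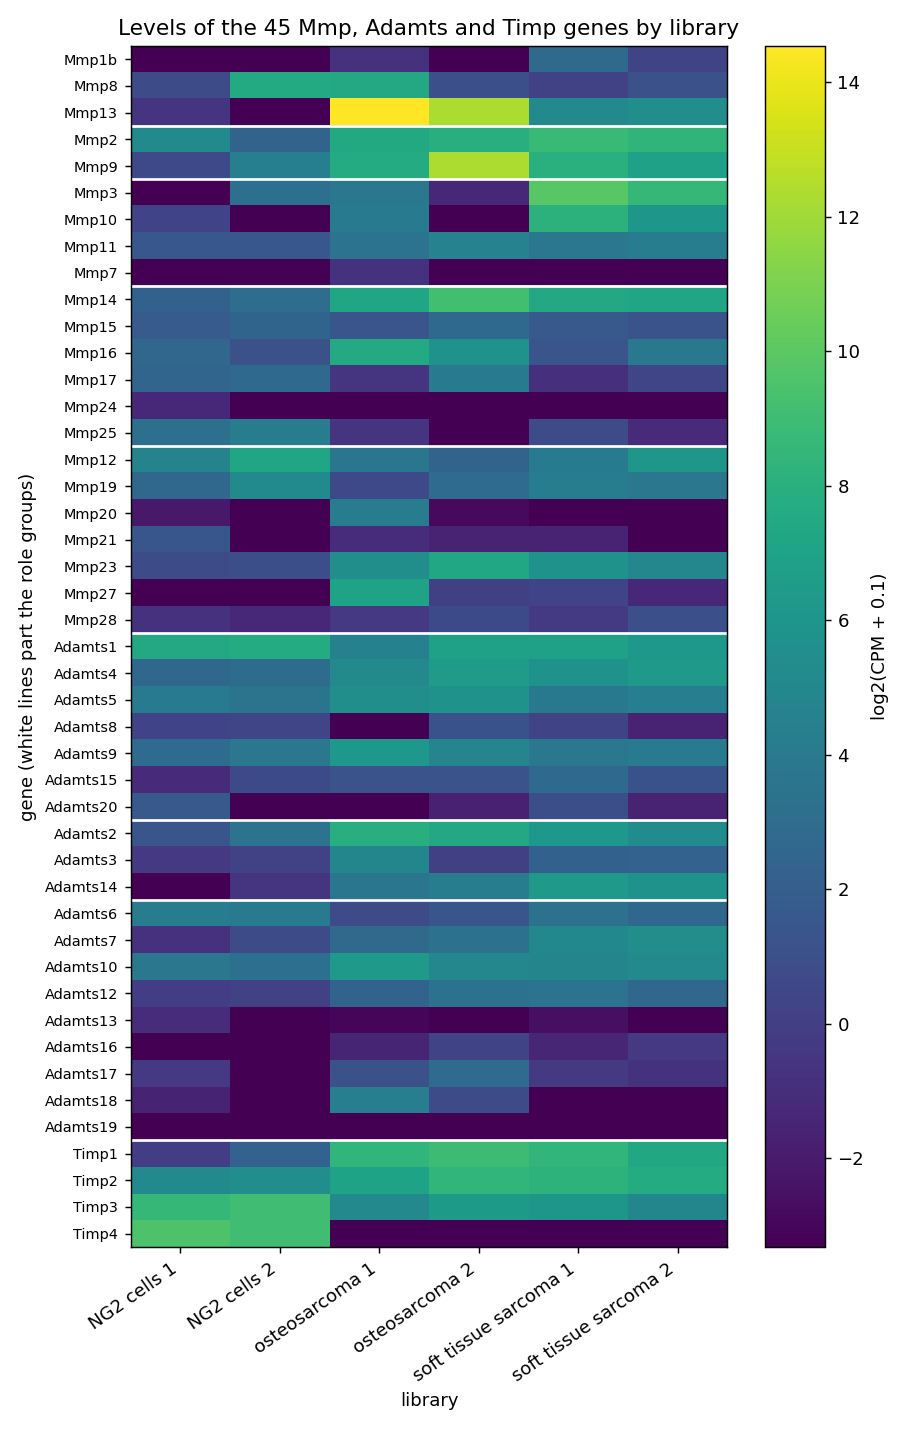
The heat map shows log2(CPM + 0.1) of the 45 genes (rows, in order of role) in the 6 libraries (columns). Mmp13 is brightest in the osteosarcomas (23792 and 5232 CPM), Mmp3 is bright in the soft tissue sarcomas (944 and 375 CPM), and Timp4 is bright in NG2 cells and at 0 counts in every tumour library.

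**Figure D2:**
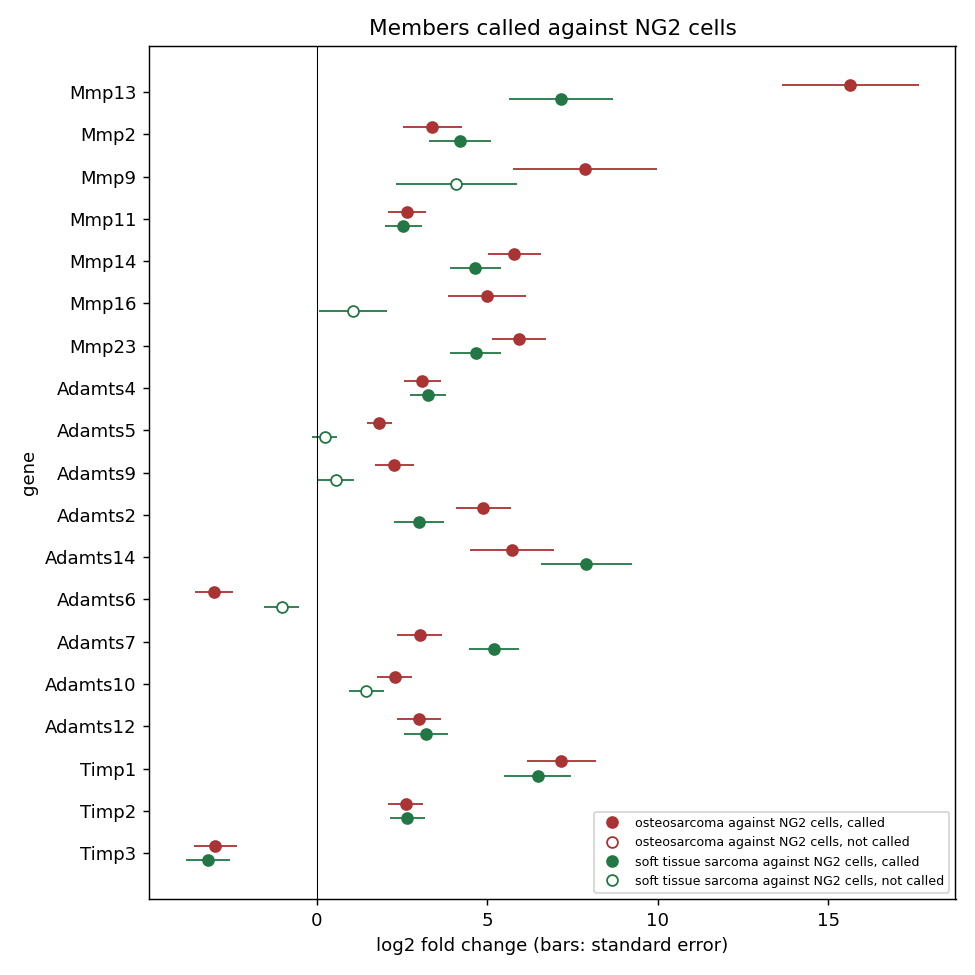
Points are log2 fold changes against NG2 cells and bars are standard errors, for the genes called in at least 1 tumour type; filled points were called by edgeR. Timp4 and Adamts16 are left out because 1 group of the comparison held 0 counts. Mmp13 stands farthest right, at 15.65 in osteosarcoma, and Timp3 and Adamts6 lie left of 0.

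Among the collagenases, which cut fibrillar collagen, Mmp13 was the gene that rose (collagenase 3, ENSMUSG00000050578; chromosome 9, 7272514 to 7283331). It had 0.582 and 0 CPM in the sorted cells, 23792 and 5232 CPM in the osteosarcomas, and 36.0 and 45.02 CPM in the soft tissue sarcomas. The 3 groups did not overlap, and the NG2 cell level came from 21 counts in 1 library. The log2 fold change was 15.65 ± 2.01 in osteosarcoma (± SE, with n = 2 libraries a group; edgeR adjusted p = 0.00866) and 7.16 ± 1.53 in soft tissue sarcoma (edgeR adjusted p = 0.0294). The call in soft tissue sarcoma was lost without NG2 cell replicate 2 and with either soft tissue sarcoma library left out. Over the fits that left out 1 library this log2 fold change was 6.13 to 13.8. Mmp13 is known in bone as a gene of hypertrophic chondrocytes and osteoblasts. Chondrocyte markers summed to 666 and 146 CPM in the osteosarcomas and 230 and 115 CPM in the soft tissue sarcomas. The sum was 12.7 and 18.5 CPM in the sorted cells. Of the 6 markers that passed the filter, Col2a1, Acan and Col11a2 rose in osteosarcoma (50%, background 10.5%). Col2a1 had 12.3 and 53.7 CPM and Col11a2 485 and 24.1 CPM there. Sox9, not called, had 160 and 16.9 CPM in the osteosarcomas and 227 and 113 CPM in the soft tissue sarcomas. In the osteosarcomas Matn1 was at 0 and Col10a1, the marker of hypertrophic chondrocytes, at 0.0948 and 0.178 CPM. The part of chondrocytes in the level of Mmp13 was not tested. Between the tumour types the log2 difference was -8.49 ± 1.56, which edgeR did not call (adjusted p = 0.0984). DESeq2 called it, and edgeR did so without osteosarcoma replicate 2 (log2 difference -9.19, adjusted p = 0.0346).

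Mmp8, the collagenase of neutrophil granules, had 1.69 and 197 CPM in the sorted cells, 179 and 1.96 CPM in the osteosarcomas, and 1.04 and 2.06 CPM in the soft tissue sarcomas. It was high in 1 NG2 cell library and 1 osteosarcoma, and those groups overlapped (edgeR adjusted p = 0.971). The 11 neutrophil markers summed to 78.4 and 3648 CPM in the sorted cells and to 25.7 and 28.8 CPM in the osteosarcomas. In osteosarcoma replicate 1, where Mmp8 was high, Ly6g, Ltf and Elane were at 0 counts and S100a8 at 0.171 CPM. Mpo had 20.6 CPM and Csf3r 4.34 CPM in that tumour. Mmp1b, one of the rodent genes related to human collagenase 1, was at 0 counts in NG2 cells, at 0.493 and 0 CPM in the osteosarcomas and at 7.15 and 1.15 CPM in the soft tissue sarcomas (edgeR adjusted p = 0.164 and 0.0656 against NG2 cells).

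Both gelatinase genes rose in osteosarcoma (100%, background 10.5%), and Mmp2 alone rose in soft tissue sarcoma (50%, background 9.89%). Mmp2 (gelatinase A; chromosome 8), whose precursor is activated on the cell surface by the Mmp14 protein together with Timp2, had 34.9 and 4.998 CPM in the sorted cells, 187 and 231 CPM in the osteosarcomas and 411 and 324 CPM in the soft tissue sarcomas. All 4 tumour libraries lay above both NG2 cell libraries. It rose 10.5-fold in osteosarcoma (log2 3.39 ± 0.87, edgeR adjusted p = 0.0425) and 18.5-fold in soft tissue sarcoma (log2 4.21 ± 0.90, edgeR adjusted p = 0.0298). Between the tumour types the log2 difference was 0.81 ± 0.80 (edgeR adjusted p = 0.683).

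Mmp9 (gelatinase B; chromosome 2, 164940780 to 164955850), a gene of osteoclasts, macrophages and neutrophils, had 1.44 and 21.1 CPM in the sorted cells, 200 and 5124 CPM in the osteosarcomas and 263 and 121 CPM in the soft tissue sarcomas. The lumbar spine tumour stood far above every other library. Mmp9 rose in osteosarcoma by a log2 fold change of 7.88 ± 2.11 (edgeR adjusted p = 0.047), and its log2 fold change in soft tissue sarcoma was 4.09 ± 1.77 (edgeR adjusted p = 0.151). The call in osteosarcoma was lost in 5 of the 6 fits that left out 1 library and held without osteosarcoma replicate 1, with log2 fold changes of 4.16 (without osteosarcoma replicate 2) to 10.9 and edgeR adjusted p of 0.0232 to 0.139. The 10 osteoclast markers summed to 475 and 289 CPM in the sorted cells, 822 and 15611 CPM in the osteosarcomas and 429 and 309 CPM in the soft tissue sarcomas. Among them Ctsk, the osteoclast collagenase cathepsin K, had 276 and 6018 CPM and Ocstamp 12.4 and 332 CPM in the osteosarcomas, so they were high in the same tumour as Mmp9. Their part in the level of Mmp9 was not tested. The 10 macrophage markers summed to 469 and 745 CPM in the sorted cells and 1451 and 1693 CPM in the osteosarcomas. In the soft tissue sarcomas they summed to 3438 and 2765 CPM. Among them Cd68 (294 and 979 CPM) and Csf1r (158 and 380 CPM) were higher in the spinal osteosarcoma than in the tibial one. The other macrophage markers were lower there. The part of macrophages in the level of Mmp9 was not tested either.

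**Figure D3:**
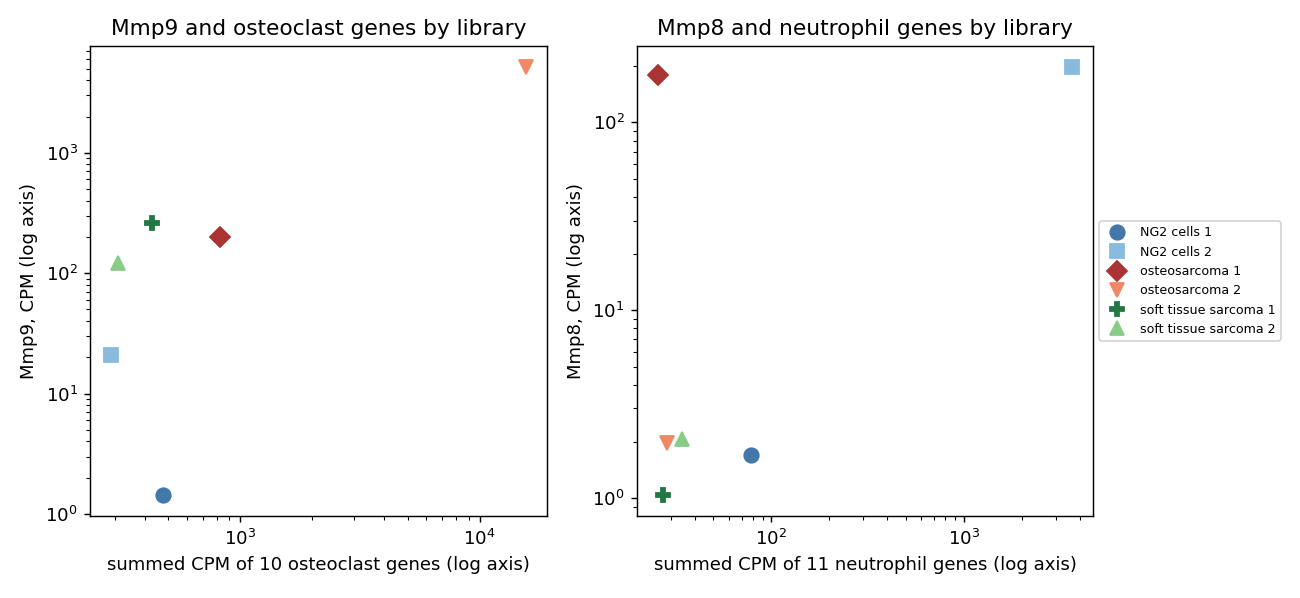
Each point is a library. The left panel plots Mmp9 (CPM) against the summed CPM of 10 osteoclast genes and the right panel Mmp8 against that of 11 neutrophil genes, all on log axes. Osteosarcoma 2 is highest on both axes at left (15611 and 5124 CPM); at right NG2 cells 2 is high on both, while osteosarcoma 1 has 179 CPM of Mmp8 beside 25.7 CPM of neutrophil genes.

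The stromelysin genes Mmp3 and Mmp10, whose products cut proteoglycans and activate other Mmp precursors, were highest in soft tissue sarcoma but missed the threshold. Mmp3 (chromosome 9, 7445822 to 7455975) had 0 and 9.24 CPM in the sorted cells, 14.0 and 0.320 CPM in the osteosarcomas and 944 and 375 CPM in the soft tissue sarcomas. Both soft tissue sarcomas lay above the other 4 libraries, yet the spread within the other groups was wide. The log2 fold change against NG2 cells was 7.15 ± 2.61 (edgeR adjusted p = 0.103) and the difference from osteosarcoma 6.51 ± 2.54 (edgeR adjusted p = 0.294). Mmp10 (chromosome 9, 7502352 to 7510240) had 1.11 and 0 CPM in the sorted cells, 15.8 and 0 CPM in the osteosarcomas and 281 and 71.3 CPM in the soft tissue sarcomas. Its log2 fold change in soft tissue sarcoma was 8.34 ± 2.81 (edgeR adjusted p = 0.0857). Against NG2 cells, DESeq2 called Mmp3, edgeR with no filter or with a replicate block called Mmp10, and edgeR on these 2 groups alone called both. Mmp11 (stromelysin 3), a stromal enzyme that furin activates inside the cell, was low and even in NG2 cells at 2.74 and 2.80 CPM. It rose 6.27-fold in osteosarcoma, to 10.9 and 23.9 CPM (log2 2.65 ± 0.55, edgeR adjusted p = 0.0248). In soft tissue sarcoma it rose 5.84-fold, to 13.2 and 19.2 CPM (log2 2.55 ± 0.55, edgeR adjusted p = 0.0296). Part of the Mmp11 exons (5.58%) overlaps Chchd10 on the other strand, and the strand setting of the counting was not given. The matrilysin gene Mmp7 had counts in osteosarcoma replicate 1 alone, at 0.512 CPM.

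Of the membrane-type genes, which anchor the protease to the cell, Mmp14 and Mmp16 rose. Mmp14 (chromosome 14, 54431612 to 54445364), the main surface collagenase and activator of the Mmp2 precursor, had 4.68 and 8.09 CPM in the sorted cells, 145 and 567 CPM in the osteosarcomas and 176 and 147 CPM in the soft tissue sarcomas. All tumour libraries lay more than an order of magnitude above the NG2 cells. It rose 55.7-fold in osteosarcoma (log2 5.80 ± 0.78, edgeR adjusted p = 0.00934) and 25.2-fold in soft tissue sarcoma (log2 4.66 ± 0.74, edgeR adjusted p = 0.0153). Mmp16 had 5.82 and 2.09 CPM in the sorted cells, 197 and 55.3 CPM in the osteosarcomas and 2.52 and 14.1 CPM in the soft tissue sarcomas. It was high in the osteosarcomas and overlapped between NG2 cells and soft tissue sarcoma. It rose 31.9-fold in osteosarcoma (SE of the log2 fold change 1.15, edgeR adjusted p = 0.0326); the log2 fold change was 1.06 ± 0.99 in soft tissue sarcoma (edgeR adjusted p = 0.471). The difference between the tumour types, -3.93 ± 1.09 on the log2 scale, was not called by edgeR (adjusted p = 0.185) and was called by DESeq2.

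The other membrane-type genes were low or missed the threshold. Mmp25, known from leukocytes, had 9.61 and 19.1 CPM in the sorted cells and at most 1.59 CPM in a tumour (edgeR adjusted p = 0.0651 in osteosarcoma and 0.128 in soft tissue sarcoma). Mmp15 ranged from 2.22 to 6.65 CPM and Mmp17 from 0.436 to 17.5 CPM, and Mmp24 had counts in NG2 cell replicate 1 alone, at 0.305 CPM.

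Of the remaining Mmp genes Mmp23 rose in both tumour types. Mmp23 (chromosome 4, 155650655 to 155653384), which encodes a protease held in the membrane by its propeptide, had 1.69 and 1.81 CPM in the sorted cells, 45.8 and 169 CPM in the osteosarcomas and 57.4 and 31.3 CPM in the soft tissue sarcomas. It rose 61.1-fold in osteosarcoma (log2 5.93 ± 0.78, edgeR adjusted p = 0.00906) and 25.3-fold in soft tissue sarcoma (log2 4.66 ± 0.74, edgeR adjusted p = 0.0153). Mmp12, the macrophage elastase, had 25.3 and 148 CPM in the sorted cells, 12.9 and 4.98 CPM in the osteosarcomas and 16.6 and 68.6 CPM in the soft tissue sarcomas. The osteosarcomas lay below both NG2 cell libraries, but the difference was not called (edgeR adjusted p = 0.0807). Macrophage markers summed to 469 and 745 CPM in the sorted cells and to more in every tumour library. Of the 10, Csf1r, C1qa, C1qb and C1qc rose in both tumour types (40%, background 10.5% in osteosarcoma and 9.89% in soft tissue sarcoma). The others were not called, among them Cd163, with 30.1 and 20.9 CPM in the sorted cells and 6.26 to 13.6 CPM in the tumours. The part of macrophages in the level of Mmp12 was not tested. Mmp19 had 6.10 and 37.2 CPM in the sorted cells, 1.42 and 7.47 CPM in the osteosarcomas and 18.9 and 13.7 CPM in the soft tissue sarcomas. Both tumour types overlapped the sorted cells. The soft tissue sarcomas lay above the osteosarcomas, a difference that edgeR did not call. Tmem198b on the other strand overlaps 22.3% of its exons.

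Mmp27 and Mmp20 were high in 1 tumour only. Mmp27 was at 0 counts in NG2 cells, at 129 and 0.960 CPM in the osteosarcomas and at 1.11 and 0.303 CPM in the soft tissue sarcomas. Taken over the group, with 3 counts in place of 0, its mean in osteosarcoma was at least 1730-fold higher than in NG2 cells, and the test missed the threshold (edgeR adjusted p = 0.0518). Mmp20, the enamel protease enamelysin, had 18.8 CPM in osteosarcoma replicate 1 and at most 0.139 CPM elsewhere. Mmp21 stayed at or below 2.63 CPM and Mmp28 at or below 1.95 CPM in every library.

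These genes lie side by side. Mmp13, Mmp12, Mmp1b, Mmp3, Mmp10, Mmp8, Mmp27, Mmp20 and Mmp7 are in 427 kb of chromosome 9 (7272514 to 7699585, GRCm38). Their levels did not move as 1 block. In the tibial osteosarcoma the neighbours Mmp8, Mmp27 and Mmp20 had 179, 129 and 18.8 CPM, against 1.96, 0.960 and 0.0356 CPM in the spinal one, while Mmp13 was high in both. In the soft tissue sarcomas Mmp3 was highest (944 and 375 CPM) and Mmp10 next (281 and 71.3 CPM), with Mmp12 (16.6 and 68.6 CPM) close to it in replicate 2 and Mmp13 at 36.0 and 45.02 CPM. Mmp20 and Mmp7 had 0 counts there.

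**Figure D4:**
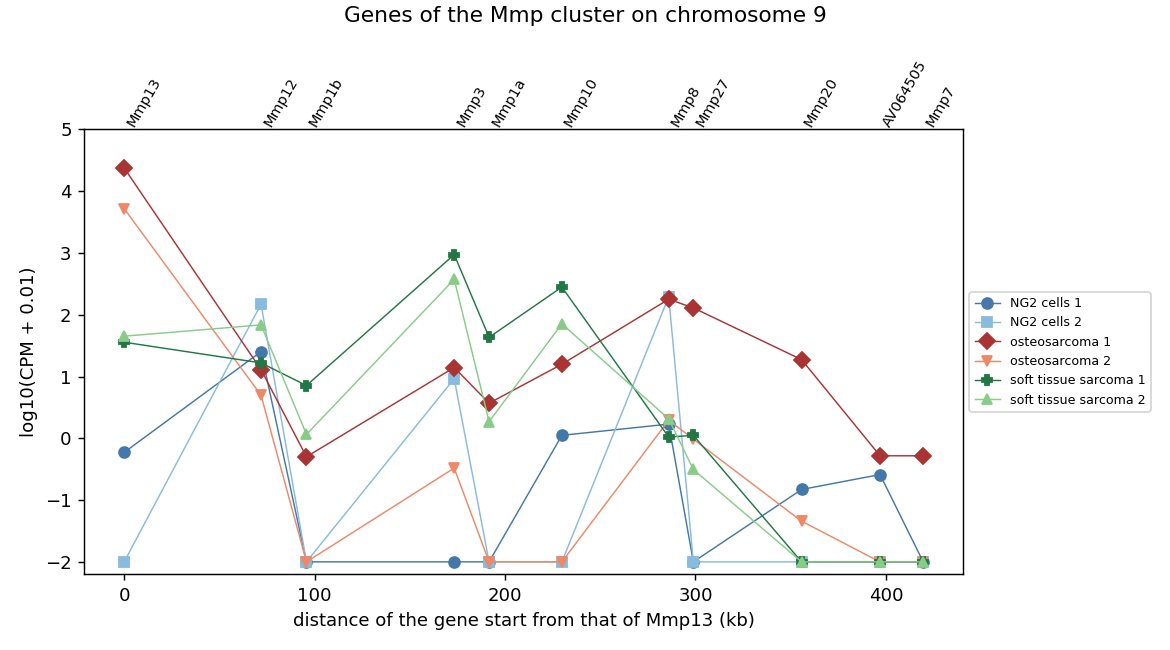
The plot gives log10(CPM + 0.01) of each gene of the chromosome 9 Mmp cluster against the distance of its start from that of Mmp13 (kb); each line is a library, and -2 stands for 0 counts. Mmp1a and the antisense gene AV064505 are shown although they are outside the rule. The osteosarcomas are highest at Mmp13 (23792 and 5232 CPM) and the soft tissue sarcomas at Mmp3 (944 and 375 CPM).

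Among the 7 Adamts genes that cut aggrecan and versican, 3 rose in osteosarcoma (42.9%, background 10.5%) and 1 in soft tissue sarcoma (14.3%, background 9.89%). Adamts4, aggrecanase 1, had 6.40 and 7.77 CPM in the sorted cells, 33.7 and 87.9 CPM in the osteosarcomas and 56.2 and 80.5 CPM in the soft tissue sarcomas. It rose 8.57-fold in osteosarcoma (log2 3.10 ± 0.53, edgeR adjusted p = 0.0163) and 9.64-fold in soft tissue sarcoma (log2 3.27 ± 0.54, edgeR adjusted p = 0.0162). Adamts5, the main aggrecanase of mouse cartilage, had 17.3 and 11.6 CPM in the sorted cells, 45.2 and 58.6 CPM in the osteosarcomas and 14.7 and 19.4 CPM in the soft tissue sarcomas. The osteosarcomas lay above the other 4 libraries, which overlapped. It rose 3.59-fold in osteosarcoma (log2 1.84 ± 0.37, edgeR adjusted p = 0.0229), and its log2 fold change in soft tissue sarcoma was 0.24 ± 0.36 (edgeR adjusted p = 0.664). Adamts9, a versican-cutting enzyme, had 7.45 and 13.3 CPM in the sorted cells, 73.0 and 28.2 CPM in the osteosarcomas and 14.2 and 16.4 CPM in the soft tissue sarcomas. It rose 4.86-fold in osteosarcoma (log2 2.28 ± 0.57, edgeR adjusted p = 0.0389), with a log2 fold change of 0.56 ± 0.54 in soft tissue sarcoma (edgeR adjusted p = 0.49). For the tumours against each other, the log2 differences of Adamts5 (-1.61 ± 0.37) and Adamts9 (-1.72 ± 0.55) were called by DESeq2 and not by edgeR (adjusted p = 0.141 and 0.225).

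Adamts1, another versican-cutting enzyme, had the highest level per kilobase of the Adamts genes in NG2 cells. It had 176 and 207 CPM there, 23.4 and 118 CPM in the osteosarcomas and 122 and 72.0 CPM in the soft tissue sarcomas. Every tumour library lay below both NG2 cell libraries, but the differences were not called (edgeR adjusted p = 0.196 and 0.361). In NG2 cells 70.5% and 73.3% of the Adamts reads, not corrected for length, fell on it. Adamts8, Adamts15 and Adamts20 stayed at or below 2.13, 6.64 and 3.10 CPM.

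Of the 3 enzymes that remove the amino-terminal propeptide of fibrillar procollagens, Adamts2 and Adamts14 rose in both tumour types. That is 66.7%, against a background of 10.5% in osteosarcoma and 9.89% in soft tissue sarcoma. Adamts2 (chromosome 11, 50602084 to 50807573), the main N-proteinase of procollagen I, had 2.60 and 11.3 CPM in the sorted cells, 241 and 172 CPM in the osteosarcomas and 73.3 and 38.7 CPM in the soft tissue sarcomas. It rose 29.6-fold in osteosarcoma (log2 4.89 ± 0.81, edgeR adjusted p = 0.015) and 8.04-fold in soft tissue sarcoma (log2 3.01 ± 0.74, edgeR adjusted p = 0.0407). Adamts14 (chromosome 10, 61197112 to 61273438) had 0 and 0.550 CPM in the sorted cells, 12.7 and 17.6 CPM in the osteosarcomas and 81.6 and 56.6 CPM in the soft tissue sarcomas. It rose by 5.72 ± 1.23 on the log2 scale in osteosarcoma (edgeR adjusted p = 0.0272) and, in soft tissue sarcoma, by 7.91 ± 1.33 (edgeR adjusted p = 0.0169). Adamts2 was thus higher in the osteosarcomas and Adamts14 in the soft tissue sarcomas, with no overlap, but neither difference was called (log2 -1.88 ± 0.71 and 2.19 ± 1.01; edgeR adjusted p = 0.28 and 0.365). Adamts3, which also trims the lymphatic growth factor Vegfc, had 29.5 CPM in osteosarcoma replicate 1 and 0.665 to 4.75 CPM in the other libraries (edgeR adjusted p = 0.0916 in osteosarcoma). Col1a1, a gene of their substrate procollagen I, had 41.3 and 19.1 CPM in the sorted cells, 32201 and 19599 CPM in the osteosarcomas and 2389 and 1779 CPM in the soft tissue sarcomas.

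Of the 7 other Adamts genes tested, 4 rose and 1 fell in osteosarcoma (57.1% and 14.3%, background 10.5% and 11%), and 2 rose in soft tissue sarcoma (28.6%, background 9.89%). Adamts6, an enzyme that acts on fibrillin microfibrils, had 18.7 and 15.5 CPM in the sorted cells, 1.59 and 2.67 CPM in the osteosarcomas and 10.7 and 6.07 CPM in the soft tissue sarcomas. The 3 groups did not overlap. In osteosarcoma it fell by 3.01 ± 0.56 (log2; edgeR adjusted p = 0.0198), with a log2 fold change of -1.03 ± 0.52 in soft tissue sarcoma (edgeR adjusted p = 0.208). Its relative Adamts10, also of the microfibril system, had 13.4 and 8.94 CPM in the sorted cells, 77.9 and 31.1 CPM in the osteosarcomas and 28.4 and 33.2 CPM in the soft tissue sarcomas. It rose 4.88-fold in osteosarcoma (log2 2.29 ± 0.52, edgeR adjusted p = 0.0311) and missed the threshold in soft tissue sarcoma (log2 1.46 ± 0.50, edgeR adjusted p = 0.0901).

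Adamts7 and Adamts12, a pair known to cut cartilage oligomeric matrix protein, rose in both tumour types. Adamts7 had 0.471 and 1.63 CPM in the sorted cells, 7.30 and 9.88 CPM in the osteosarcomas and 32.9 and 44.8 CPM in the soft tissue sarcomas, with no overlap between groups. It rose 8.12-fold in osteosarcoma (log2 3.02 ± 0.66, edgeR adjusted p = 0.0283) and 36.7-fold in soft tissue sarcoma (log2 5.20 ± 0.72, edgeR adjusted p = 0.0122). Between the tumour types its log2 difference was 2.18 ± 0.63, called by DESeq2 and not by edgeR (adjusted p = 0.193). Adamts12 had 0.859 and 1.01 CPM in the sorted cells, 5.15 and 9.96 CPM in the osteosarcomas and 10.9 and 6.44 CPM in the soft tissue sarcomas. It rose 8.06-fold (log2 3.01 ± 0.65, edgeR adjusted p = 0.0277) and 9.23-fold (log2 3.21 ± 0.66, edgeR adjusted p = 0.0261), in that order. Adamts16 was at 0 counts in NG2 cells, at 0.265 and 1.14 CPM in the osteosarcomas and at 0.285 and 0.674 CPM in the soft tissue sarcomas. Its mean in osteosarcoma was at least 18.6-fold higher than 3 counts over the NG2 cell group (edgeR adjusted p = 0.0458), a call that was lost when any 1 of the 6 libraries was left out. Adamts18 had 20.1 and 1.71 CPM in the osteosarcomas, at most 0.222 CPM in the sorted cells and 0 counts in soft tissue sarcoma, and edgeR called no difference (adjusted p = 0.0824 against NG2 cells). Adamts17 stayed at or below 7.36 CPM, Adamts13, the protease of von Willebrand factor, at or below 0.388 CPM, and Adamts19 had 0 counts in all 6 libraries.

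All 4 inhibitor genes were called in both tumour types, against 21.5% of all genes in osteosarcoma and 19.3% in soft tissue sarcoma. In each, 2 were higher (50%, background 10.5% and 9.89%) and 2 lower (50%, background 11% and 9.4%). Timp1 (chromosome X, 20870166 to 20874735), a secreted inhibitor that also acts as a growth factor, had 0.831 and 4.86 CPM in the sorted cells, 347 and 482 CPM in the osteosarcomas and 348 and 163 CPM in the soft tissue sarcomas. It rose 145-fold in osteosarcoma (log2 7.18 ± 1.02, edgeR adjusted p = 0.0103) and 89.3-fold in soft tissue sarcoma (log2 6.48 ± 0.99, edgeR adjusted p = 0.0141). Timp2, which takes part in the activation of the Mmp2 precursor, had 37.1 and 42.8 CPM in the sorted cells, 134 and 353 CPM in the osteosarcomas and 306 and 201 CPM in the soft tissue sarcomas. It rose 6.09-fold in osteosarcoma (log2 2.61 ± 0.52, edgeR adjusted p = 0.0228) and 6.34-fold in soft tissue sarcoma (log2 2.66 ± 0.52, edgeR adjusted p = 0.0238). For both genes every tumour library lay above every NG2 cell library.

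Timp3 and Timp4 went the other way. Timp3 (chromosome 10, 86300372 to 86349506), which is bound to the matrix and also inhibits Adam17 and aggrecanases, had 387 and 531 CPM in the sorted cells, 33.0 and 84.1 CPM in the osteosarcomas and 71.5 and 29.2 CPM in the soft tissue sarcomas. In osteosarcoma it fell by 2.97 ± 0.63 (log2; edgeR adjusted p = 0.027), and in soft tissue sarcoma it fell by 3.19 ± 0.64 (edgeR adjusted p = 0.0252). Syn3 on the other strand overlaps 21.3% of the Timp3 exons. Timp4 (chromosome 6, 115241892 to 115252205) had 736 and 540 CPM in the sorted cells and 0 counts in all 4 tumour libraries, which hold 20383 to 21437 genes with counts. With 3 counts over a tumour group in place of 0, its mean in NG2 cells was at least 17205-fold higher than in osteosarcoma (edgeR adjusted p = 0.00419) and at least 18989-fold higher than in soft tissue sarcoma (edgeR adjusted p = 0.0073). Timp4 is known from heart, muscle and fat. The 10 skeletal muscle markers summed to 89.8 and 80.4 CPM in the sorted cells, 12.4 and 981 CPM in the osteosarcomas and 43.8 and 7.35 CPM in the soft tissue sarcomas. Of 10 adipocyte markers, Adipoq, Plin1 and Lep were at 0 counts in both NG2 cell libraries, while Fabp4 had 432 and 871 CPM and Lpl 855 and 1351 CPM there, against at most 49.1 and 45.6 CPM in a tumour. Pecam1, an endothelial marker, had 384 and 592 CPM in the sorted cells and at most 83.3 CPM in a tumour. The part of muscle, endothelial or fat cells in the levels of Timp3 and Timp4 was not tested.

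**Figure D5:**
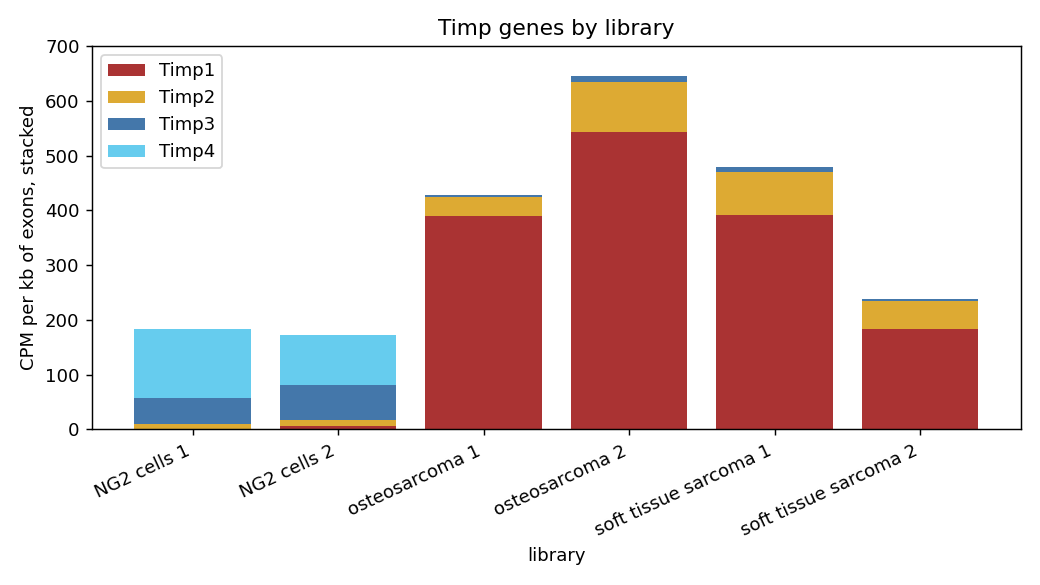
Stacked bars give the 4 Timp genes in each library as CPM per kilobase of exons. In NG2 cells most of each bar is Timp4 (125 and 91.6) and Timp3 (47.6 and 65.2); in all 4 tumours most is Timp1 (183 to 543), and Timp4 is at 0.

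Per kilobase of exons, the scale on which levels of different genes can be set side by side, each group had its own leading genes. In NG2 cells the mean level was highest for Timp4 at 108 CPM per kb and Timp3 at 56.4, and these 2 did not overlap between libraries. Mmp8 came next at 40.9, a place that rests on 1 library (0.697 and 81.1 CPM per kb), before Adamts1 at 36.1. In osteosarcoma Mmp13 led at 5429 CPM per kb, followed by Mmp9 at 752 and Timp1 at 467; Mmp9 and Timp1 changed places between the tumours. In soft tissue sarcoma Mmp3 at 366 and Timp1 at 288 CPM per kb led, with overlapping libraries, before Mmp2 at 109 and Mmp10 at 102. Of the Mmp reads, not corrected for length, Mmp13 took 95.3% in the tibial osteosarcoma and 45.7% in the spinal one, where Mmp9 took 44.8%. In the soft tissue sarcomas Mmp3 took 42.2% and 30.3% and Mmp2 18.4% and 26.1%.

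Genes that act with these proteases were also tested. Comparing the tumours with each other, edgeR called 0 genes of the 3 lists below, against 0.142% of all genes. At an unadjusted p under 0.05 were 4 of 10 activation genes, 1 of 5 inhibitor and clearance genes and 8 of 15 substrate genes. The share of all genes at that threshold was not counted, so it is not known whether these counts are particular to the lists. Among 10 tested genes of Mmp activation, 3 rose and 1 fell in osteosarcoma (30% and 10%, background 10.5% and 11%). The counts in soft tissue sarcoma were likewise 3 and 1 (30% and 10%, background 9.89% and 9.4%). Plaur, the receptor of urokinase, fell in both, from 499 and 351 CPM in the sorted cells to 60.1 and 81.5 CPM in the osteosarcomas and 90.4 and 99.6 CPM in the soft tissue sarcomas (edgeR adjusted p = 0.00808 and 0.013). Its ligand Plau, urokinase, rose 5.56-fold in soft tissue sarcoma (edgeR adjusted p = 0.0107) and was at 22.8 and 25.1 CPM in the osteosarcomas (edgeR adjusted p = 0.314). The second plasminogen activator, Plat, rose 12.2-fold in soft tissue sarcoma (edgeR adjusted p = 0.0178). Bsg, the surface protein known to induce Mmp genes in neighbouring fibroblasts, rose in both, from 241 and 199 CPM to 960 and 917 CPM in the osteosarcomas and 974 and 788 CPM in the soft tissue sarcomas (edgeR adjusted p = 0.00903 and 0.0119). Serpine2, an inhibitor of thrombin and urokinase, rose 40.5-fold in osteosarcoma, from 43.6 and 35.3 CPM to 176 and 3022 CPM (edgeR adjusted p = 0.0368). Pcsk6, a furin-like convertase, rose 27.5-fold there, from 3.66 and 0.550 CPM to 82.3 and 33.0 CPM (edgeR adjusted p = 0.0428).

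Of 5 other inhibitor and clearance genes, Lrp1 and Tfpi2 rose in both tumour types (40%, background 10.5% in osteosarcoma and 9.89% in soft tissue sarcoma). Lrp1, the receptor that takes up protease and inhibitor complexes, had 38.4 and 60.7 CPM in the sorted cells and 206 to 513 CPM in the tumours. Reck, a membrane-anchored Mmp inhibitor, was not called and ranged from 2.06 to 12.1 CPM. Of 15 matrix substrate genes, 8 rose in osteosarcoma (53.3%, background 10.5%) and 9 in soft tissue sarcoma (60%, background 9.89%), and 0 fell; Col1a1, Col1a2, Sparc and Hspg2 were among the risers of both. Col1a1 rose 858-fold in osteosarcoma and 69.0-fold in soft tissue sarcoma (edgeR adjusted p = 0.00419 and 0.00846). Hspg2, the gene of perlecan, rose 2.45-fold and 5.82-fold in that order (edgeR adjusted p = 0.0277 and 0.00918). Bcan, the gene of brevican, rose in osteosarcoma, from 0.0277 and 0 CPM in the sorted cells to 6.23 and 12.8 CPM (edgeR adjusted p = 0.0117).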

How the data were processed

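RNA of 6 samples was measured. Per the labels' protocols, total RNA was extracted with Trizol, about 10 ng was reverse transcribed by oligo(dT) priming and template switching and amplified by 20 PCR cycles, and paired-end libraries were made. The deposited values are raw read counts per Ensembl gene, in 1 table per library. The submitters' processing notes name HTSeq, STAR, cutadapt, Trim Galore, FastQC and DESeq2, and the builds GRCm38 and mm10. Their versions, the strand setting and the annotation release are not given in the sources used here. Reads of overlapping genes on the other strand can therefore not be told apart. The 5 counters at the end of each table were left out. Reads on no gene made up 33.2% in both NG2 cell libraries and 19.5% to 23.4% in the tumour libraries. Reads amplified by PCR and not marked by molecular identifiers are not separate molecules, so floors cover counting error only.

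From these counts, edgeR 4.0.16 (R 4.3.3) scaled library sizes by TMM, filtered with filterByExpr by group (minimum count 10, minimum total 15) and ran quasi-likelihood F tests in 1 model of all 6 libraries with no covariate. The model had 3 residual and 3.04 prior degrees of freedom and a common dispersion of 0.334. P was adjusted by Benjamini-Hochberg over all 19024 genes, and genes under 0.05 were called; genes are said to rise or fall where they were called. A standard error is the log2 fold change over the square root of F. A group at 0 counts was set to 3 counts over the group (0.0336 to 0.0376 CPM) to give a lower bound. A permutation test of 2 against 2 libraries cannot go below p = 0.333. Alternatives were RLE scaling, no filter, a fit of 2 groups only, DESeq2 1.42.0, the replicate number as a block, each library left out, and another gene length. Genes called in at least 1 comparison, or whose mean reached 20 CPM in a group, are named with every library's value, the others by their range. From the lists of other genes up to 4 called genes per comparison are named in order of p, with a few more (such as Reck) chosen after their values were seen. The genes, lists and tests were chosen with earlier results of these data known.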

Additional observations from a re-analysis of the deposited data

How the results depend on the processing

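Among the fold changes with an unadjusted p under 0.05, none changed sign under any alternative run; those of other genes, such as Mmp8 with its overlapping groups, were not recomputed. The 21 genes called in osteosarcoma against NG2 cells became 21 with RLE scaling (52.5%) and 25 with no filter (56.8%). DESeq2 called 25 (61%), and a fit of these 2 groups only called 11 (28.9%). The share of all genes called, 21.5% in the main run, was 21.4%, 16.4%, 35.5% and 11.6% in that order. With any 1 library left out fewer of these genes, and of all genes tested, were called. Timp1, Timp4, Adamts2 and Mmp13 were called in all 6 of those fits, and every other call was lost in at least 1. The calls of Mmp2, Mmp9, Mmp11, Timp2, Adamts5, Adamts7, Adamts9, Adamts10, Adamts12 and Adamts16 were lost in most of them. In soft tissue sarcoma against NG2 cells the 14 called genes became 14, 16, 21 and 23 under the same alternatives, and 0 to 20 with 1 library left out. With RLE scaling, no filter, DESeq2 and the fit of 2 groups only, that is 35%, 36.4%, 51.2% and 59% of these genes tested. The share of all genes called, 19.3% in the main run, was 19.2%, 14.8%, 34.4% and 30.1% in that order. With 1 library left out the share of all genes moved in the same direction as the count of these genes. Between the tumour types the count of 0 became 1 with no filter (Mmp13), which is 2.27% against 1.57% of all genes. DESeq2 called 7 (Adamts5, Mmp16, Adamts9, Adamts7, Adamts6, Mmp13 and Adamts18), or 17.1% against 10.6% of all genes. With osteosarcoma replicate 2 left out edgeR called Mmp13 and Mmp27. The fits without 1 library assume that the lone sample of its group varies like the other groups; beyond the smaller number of samples, the cause of these shifts was not tested. With the replicate number as a block the counts were 19, 12 and 0 (47.5%, 30% and 0%), against 14%, 11.6% and 0.0421% of all genes. The numbers do not pair the samples: deviations of same-numbered libraries correlated at 0.049, -0.00277 and -0.0864 over 2 numbers. With the length of the longest transcript in place of all exons, 3 of the 5 leading genes per kilobase stayed among the leading 5 in osteosarcoma, and 5 of 5 in the other groups. With 2 libraries per group, differences between the tumours that missed the threshold are not shown to be absent.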

Other observations

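Mmp1a, a rodent relative of human collagenase 1 that lies between Mmp3 and Mmp10 (chromosome 9, 7464141 to 7476869), had 0 counts in NG2 cells, 3.70 and 0 CPM in the osteosarcomas and 43.2 and 1.85 CPM in the soft tissue sarcomas. Like Mmp1b and Mmp10, it was higher in soft tissue sarcoma replicate 1 than in replicate 2.

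Among 12 tested astacin and Adam relatives, 3 rose and 2 fell in osteosarcoma (25% and 16.7%, background 10.5% and 11%), and 6 rose in soft tissue sarcoma (50%, background 9.89%). These counts include Pcolce and Pcolce2, which are not of the astacin or Adam families, and Pcolce is among the genes that rose in both. Bmp1, the proteinase that removes the carboxy-terminal propeptide of procollagens, had 5.65 and 13.0 CPM in the sorted cells, 280 and 648 CPM in the osteosarcomas and 148 and 59.8 CPM in the soft tissue sarcomas (edgeR adjusted p = 0.0101 and 0.0265). Pcolce, the enhancer of Bmp1, rose 56.2-fold in osteosarcoma and 20.1-fold in soft tissue sarcoma (edgeR adjusted p = 0.00552 and 0.0101). Adam12, a membrane protease of growing muscle and bone, rose 31.5-fold and 31.8-fold (edgeR adjusted p = 0.00734 and 0.00939). Adam19 fell 3.26-fold in osteosarcoma and rose 2.75-fold in soft tissue sarcoma (edgeR adjusted p = 0.0266 and 0.04). Adam9 and Adam15, membrane proteases of the same family, rose 3.62-fold and 4.08-fold in soft tissue sarcoma (edgeR adjusted p = 0.0141 and 0.0205). Of 5 Adamts-like genes, which lack the protease domain, 0 were called in osteosarcoma by edgeR, against 21.5% of all genes. At an unadjusted p under 0.05 there were also 0, and the share of all genes at that threshold was not counted. In soft tissue sarcoma 1, Adamtsl4, rose 5.68-fold (20%, background 9.89%, edgeR adjusted p = 0.0367).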
